A study of Mus musculus with 28 samples.

Results

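Mid1ip1, known in the study as Mig12, was examined together with its paralog Thrsp and 6 enzymes of fatty acid synthesis, Acly, Acaca, Acacb, Fasn, Scd1 and Scd2. These 8 genes were taken from the 45513 genes listed in each count table. Mid1ip1 was included because the study had selected it on footprint changes in cultures expressing hTDP-43 A315T, so its values in comparisons between TDP-43 groups are given as a description with no test. The other 7 genes were included for their function and were tested. Differences between library types and between cell types over all cultures were tested for all 8. The choice of Mid1ip1 rested on A315T footprints that moved without total mRNA, so those comparisons are also given without the A315T cultures. The remaining cultures were the other side of the contrasts used for the choice. For Mid1ip1 neither form is therefore free of that choice.

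Ribosome footprints, the mRNA fragments that ribosomes shield from RNase, and fragmented poly(A)-selected total mRNA were sequenced from each of 14 mouse cultures, giving 28 libraries. MN1 cells, a clonal hybrid of mouse spinal motor neurons and neuroblastoma cells, were transiently transfected with GFP, human TDP-43 (hTDP-43) or the ALS-linked mutant hTDP-43 A315T (2 cultures each). Primary cortical neurons were prepared from C57BL/6J embryos at embryonic day 16 and kept 14 days in vitro. They came from non-transgenic littermates (WT, 2 cultures) and from hemizygous carriers of hTDP-43 or hTDP-43 A315T under the mouse prion promoter (3 cultures each). All groups also carried endogenous mouse Tardbp. MN1 cells were given cycloheximide before lysis and neurons were not, and each cell type was prepared on dates of its own. Cell type, cycloheximide and date can therefore not be told apart. Footprints were recovered from monosome fractions after digestion.

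TDP-43 is a nuclear and cytoplasmic RNA-binding protein that prefers UG-rich sequence. Fatty acids are built in the cytosol from acetyl-CoA, which ATP citrate lyase (Acly) releases from citrate. Acetyl-CoA carboxylase turns it into malonyl-CoA, the committed step, and fatty acid synthase (Fasn) extends malonyl-CoA into palmitate. The stearoyl-CoA desaturases Scd1 and Scd2 then make monounsaturated fatty acids, Scd2 being the main form in brain. Acaca is the carboxylase that serves synthesis, whereas Acacb sits at the mitochondrial outer membrane, where its malonyl-CoA restrains the uptake of fatty acids for oxidation. Mid1ip1 is a small protein that binds acetyl-CoA carboxylase and promotes its assembly into active polymers, and it was also described as a partner of the microtubule-associated ubiquitin ligase Mid1. Thrsp (Spot 14), its paralog, pairs with Mid1ip1 and is known from lipogenic tissues.

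The longest uninterrupted stretch of alternating U and G was searched in the exons of each gene on the transcribed strand, since such stretches are the sequence that TDP-43 is known to bind. The longest run spanned 8 bases in Mid1ip1, Acaca, Acly and Scd1, 7 bases in Thrsp, Acacb and Fasn, and 6 bases in Scd2. The windows of 30 bases around the 4 longest runs are shown as DNA, read from GRCm38, with the run in capitals, so that the reader can see how short they are.
Mid1ip1, 3′ UTR, chrX:10719446-10719475, plus strand: ctcccccgcccGTGTGTGTaaactggcgat
Acaca, coding sequence, chr11:84251250-84251279, plus strand: atgttgggagtTGTGTGTGgggctctccat
Acly, exon outside the annotated coding sequence and UTRs, chr11:100498785-100498814, minus strand: atcttcctaagGTGTGTGTtctgggtgcac
Scd1, 3′ UTR, chr19:44396169-44396198, minus strand: gatctgtctcgGTGTGTGTcggagtagaca
A run of 8 or more bases was present in 40.3% of 10550 protein-coding genes kept in footprints, and the median longest run in those genes was 7 bases. Runs of 12 or more bases, present in 12.67% of those genes, were found in none of the 8. Mid1ip1 thus did not stand out from other genes by the length of its run, which is a description of letters and not of binding. The paper's manual search reported only shorter UG repeats in this mRNA, a difference not resolved here. By UV crosslinking in MN1 cells, the paper reported direct binding of TDP-43 to Mid1ip1 mRNA.

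Positions are those of the count tables on GRCm38. Mid1ip1 lies on chromosome X from 10715013 to 10719690 (plus strand) with 2128 exon bases, and 543 of them (25.5%) overlap exons of the antisense gene Gm14493. Counting did not use strand, so reads over this overlap could not be told apart, and the counter's default leaves such reads out. Thrsp lies on chromosome 7 from 97412938 to 97417730, Acly on chromosome 11 from 100476353 to 100528000 and Fasn on chromosome 11 from 120805940 to 120824178, all on the minus strand. Acaca extends over chromosome 11 from 84129672 to 84401651 and Acacb over chromosome 5 from 114146535 to 114250761, both on the plus strand. The desaturases are neighbours on chromosome 19, Scd2 from 44293676 to 44306864 on the plus strand and Scd1 from 44394451 to 44407709 on the minus strand. Of the 28-base words of the Acaca exons, 41.2% occurred more than once in the genome. Nearly all of these with exactly 2 copies (5910 of 5938) had the other copy on chromosome 12 between 10152144 and 10160176, where the tables list no gene, so Acaca levels are uncertain. Repeated words made up 8.64% in Scd1, 6.44% in Scd2, 0.09% in Acacb and none in the other 4 genes.

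Assigned reads ranged from 332370 to 1219222 in MN1 footprint libraries, from 1328528 to 2988339 in MN1 total mRNA, from 166064 to 2528820 in neuron footprints and from 600385 to 6969578 in neuron total mRNA. A level of 3 counts corresponded to 2.46 to 9.03 CPM (read counts scaled to library size) in MN1 footprints and to 1.19 to 18.07 CPM in neuron footprints. This floor used plain library size, whereas the other CPM values also carry TMM normalization factors, so the scales differ somewhat. Mouse Tardbp mRNA in MN1 cells was at 246.3 and 224.2 CPM for GFP cultures, 415.9 and 347.1 CPM for hTDP-43 cultures, and 425.6 and 381.4 CPM for A315T cultures. Neurons showed no such rise. Their total mRNA was at 65.37 and 112.2 CPM in WT, 58.26 to 88.1 in hTDP-43 and 65.45 to 82.22 in A315T. Neuron footprints were at 101.2 and 104.7 CPM in WT, 66.81 to 84.63 in hTDP-43 and 79.15 to 98.48 in A315T. The Tardbp change passed the adjusted threshold in none of these comparisons. Reads of the human sequence that align to the mouse gene cannot be told apart from it. In neuron total mRNA, summed neuron markers reached 4777 to 5585 CPM against 436.3 to 547.9 in MN1 cells, and all 10 were higher in neurons. Motor neuron markers were low in both, at 52.55 to 79.39 CPM in MN1 cells and 5.377 to 12.37 CPM in neurons over 7 genes. Astrocyte markers were present in the neuron cultures at 266.5 to 640.9 CPM summed over 9 genes, none of them at 0, against 35.58 to 66.15 CPM in MN1 cells.

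Mid1ip1 mRNA was moderately abundant and even in MN1 cells. GFP cultures read 136.3 and 159.3 CPM in total mRNA, hTDP-43 cultures 140.4 and 162.3, and A315T cultures 175.4 and 174.3 (each as replicate 1, then 2). The A315T values lay above the other 4, by less than the distance between the replicates of GFP. Footprints were higher and far less even, with GFP cultures at 518.0 and 159.2 CPM, hTDP-43 cultures at 470.8 and 266.6, and A315T cultures at 976.2 and 562.2. Both A315T cultures were above all other MN1 cultures, and replicate 1 was above replicate 2 in each group.

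In neurons Mid1ip1 was low in both library types. For total mRNA, WT neurons read 54.9 and 57.71 CPM (numbered 2 and 3 in the labels), hTDP-43 neurons 44.61, 68.03 and 78.43, and A315T neurons 91.31, 41.96 and 49.31 (numbered 1 to 3), with overlapping groups. For footprints, WT neurons read 47.14 and 24.3 CPM, hTDP-43 neurons 44.1, 32.23 and 33.41, and A315T neurons 161.7, 50.34 and 45.99. A single culture, A315T replicate 1, stood apart in footprints and was also the highest in total mRNA. The other A315T cultures had 23 and 43 Mid1ip1 counts, with exact Poisson 95% intervals of 31.91 to 75.53 and 33.29 to 61.95 CPM that take in the higher WT value. The shallow hTDP-43 libraries of replicates 2 and 3 had 6 and 5 counts, with intervals of 11.83 to 70.16 and 10.85 to 77.96 CPM. Intervals cover counting error alone. They may be too narrow, because the reads had no molecular identifiers to tell amplified copies apart.

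**Figure D1:**
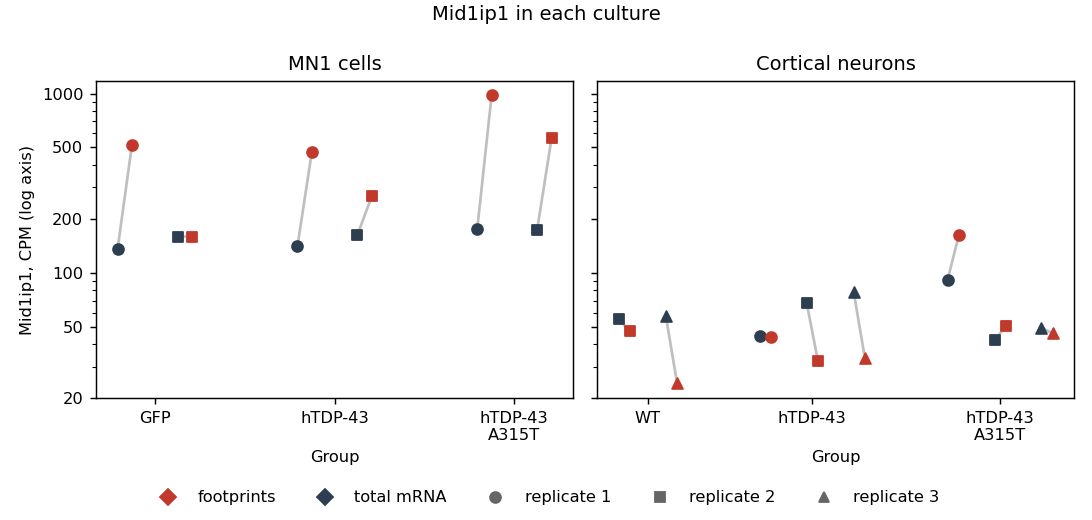
Mid1ip1 level in each culture in CPM on a log axis, MN1 cells on the left and cortical neurons on the right, with footprints in red and total mRNA in dark blue, and a grey line joining the libraries of 1 culture. In MN1 cells footprints reached 976.2 CPM while total mRNA stayed between 136.3 and 175.4 CPM. In neurons 1 A315T culture, at 161.7 CPM, lay above the other footprint values, which ended at 50.34 CPM.

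The study selected Mid1ip1 on contrasts with hTDP-43 A315T, and the fitted log2 changes follow with no test. In MN1 footprints the fitted change was 1.18 for hTDP-43 A315T against GFP, 0.97 against hTDP-43 and 0.22 for hTDP-43 against GFP. In MN1 total mRNA the corresponding values were 0.17, 0.11 and 0.06. Neuron footprints gave 1.29 for hTDP-43 A315T against WT, 1.22 against hTDP-43 and 0.07 for hTDP-43 against WT. The corresponding values in neuron total mRNA were 0.12, 0.02 and 0.16. Within groups, log2 CPM of footprints had an SD of 0.83 among MN1 cultures and 0.70 among neuron cultures, against 0.125 and 0.455 for total mRNA. The comparisons of a cell type share their groups, so they are not separate pieces of evidence.

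Single cultures set the size of these footprint values. Without A315T replicate 1, the neuron footprint value fell from 1.29 to 0.30 against WT and from 1.22 to 0.22 against hTDP-43. With the replicate number as a block, which leaves replicate 1 out of the comparison with WT since that replicate has no WT culture, the value against WT was 0.43. The blocked value against hTDP-43 was 1.66. In MN1 footprints, A315T against GFP was 0.57 without GFP replicate 2, 0.79 without A315T replicate 1 and 2.25 without GFP replicate 1, and 1.25 with the block. Against hTDP-43 it was 0.57 without A315T replicate 1 and 0.65 without hTDP-43 replicate 2, and 0.98 with the block. The MN1 value of hTDP-43 against GFP turned negative without GFP replicate 2 (−0.39) or without hTDP-43 replicate 1 (−0.24), and was 1.29 without GFP replicate 1. In neuron total mRNA the A315T values turned negative without A315T replicate 1, at −0.31 against WT and −0.41 against hTDP-43.

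Dates in the library titles follow the replicate number within a cell type. The exception is the GFP footprint library of MN1 replicate 1, titled with a later year than its partners on the same day and month, and it was kept as replicate 1 by its label. Mid1ip1 footprints in MN1 cells differed between replicate numbers in every group. Replicate 1 exceeded replicate 2 by 1.69 log2 units in GFP, 0.82 in hTDP-43 and 0.79 in hTDP-43 A315T cultures. A difference of 0.79 or more in 1 direction in all 3 groups was found for 104 of 10698 genes (0.972%), a description since the number of replicates per group is 2. Total mRNA did not share this difference, at −0.22, −0.21 and 0.01. Thrsp, the paralog, differed by replicate number in the opposite direction and in the other library type. Its MN1 total mRNA was lower in replicate 1 by 1.27, 0.66 and 0.81 log2 units, and 227 of 12801 genes (1.77%) differed as much in all 3 groups. The cause of these differences was not tested.

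Each culture gave a ratio of footprint CPM to total mRNA CPM, a measure of how many footprints a transcript carried relative to its abundance. For Mid1ip1 in MN1 cells, GFP cultures had ratios of 3.80 and 0.999, hTDP-43 cultures 3.35 and 1.64, and A315T cultures 5.57 and 3.23 (replicate 1, then 2). Among neurons, WT cultures had 0.859 and 0.421, hTDP-43 cultures 0.989, 0.474 and 0.426, and A315T cultures 1.77, 1.20 and 0.933. The ratios of the MN1 cultures of replicate 1 all lay above those of the 8 neuron cultures. Of MN1 replicate 2, the A315T culture also lay above them, whereas GFP and hTDP-43 lay within the neuron range. Within each replicate number and cell type the A315T culture had the highest ratio. This order was part of what the study selected on, and it has no test here.

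The ratios of 5 enzymes spread less than those of Mid1ip1 in both cell types. Acacb, with few counts, ran from 0.253 to 0.812 in MN1 cells and from 0 to 4.96 in neurons. Acly had the highest median ratio among the enzymes in both cell types, 1.61 in MN1 cells (range 1.30 to 1.75) and 1.99 in neurons (1.82 to 2.25), and these ranges did not overlap. Fasn had median ratios of 1.49 and 1.54. Scd2 gave 0.809 and 0.871, and Scd1 0.974 and 0.664. Acaca stood at 1.01 in MN1 cells and 0.745 in neurons, with ranges of 0.815 to 1.26 and 0.594 to 0.930. Thrsp, at 1.17 and 1.27, rested on 7 to 19 footprint counts per MN1 library and on at most 8 in neurons.

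**Figure D2:**
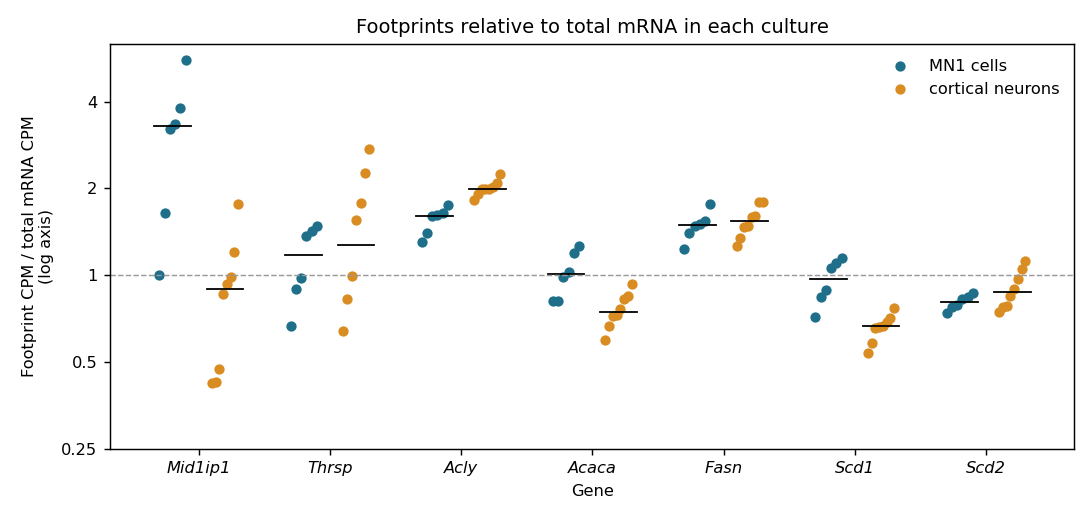
Ratio of footprint CPM to total mRNA CPM in each culture on a log axis, for 7 genes, with MN1 cells in blue, cortical neurons in orange and black lines at the medians over all cultures. Acacb is not drawn for lack of neuron footprints, and a neuron culture with 0 Thrsp footprints has no point. Mid1ip1 spread from 0.999 to 5.57 in MN1 cells and from 0.421 to 1.77 in neurons, while Acly stayed within 1.30 to 1.75 and 1.82 to 2.25.

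Footprints were compared with total mRNA in MN1 cells over all 6 cultures with edgeR's quasi-likelihood test, Benjamini-Hochberg adjusted over all genes. All 8 genes passed the filter on low counts. Mid1ip1, Fasn and Acly were higher in footprints, Acacb and Scd2 were lower, and Thrsp, Acaca and Scd1 did not pass the threshold. Of all 10212 genes tested, 28.7% were called higher and 30.8% lower, so these counts of 3 and 2 are close to what the transcriptome gave. The Mid1ip1 difference was 1.64 ± 0.23 (log2, SE; adjusted p 1.21e-05, 95% interval 1.15 to 2.14). It was 1.32 without the A315T cultures (adjusted p 0.00161) and 1.26 with GFP cultures alone (adjusted p 0.032). Fasn exceeded its total mRNA by 0.65 ± 0.09 (adjusted p 5.27e-06), with 1194 to 1685 CPM in footprints and 824.4 to 1091 CPM in total mRNA. Acly did so by 0.71 ± 0.08 (adjusted p 4.85e-07), with 790.8 to 1089 CPM and 567.7 to 679.7 CPM. Neither gene's ranges overlapped.

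Acacb failed the filter in fits of MN1 footprints alone and entered this one through total mRNA, so a lower value was favoured in advance. The Acacb difference of −0.98 ± 0.31 (adjusted p 0.0120) rested on 1 to 9 footprint counts per library. It was −0.81 (adjusted p 0.0604) without GFP replicate 2 and −1.47 (adjusted p 0.0146) without the A315T cultures. Scd2 was lower in footprints by −0.23 ± 0.08 (adjusted p 0.0199), at 1094 to 1256 CPM against 1320 to 1666 CPM. The Scd2 call was lost without A315T replicate 1 (−0.22, adjusted p 0.0518) and without all A315T cultures (−0.19, adjusted p 0.132). Thrsp at 0.10 ± 0.27, Acaca at 0.13 ± 0.11 and Scd1 at 0.02 ± 0.09 were not distinguished from their total mRNA, with 95% intervals of −0.46 to 0.67, −0.10 to 0.37 and −0.17 to 0.21.

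In neurons Fasn and Acly were again higher in footprints and Mid1ip1 was not. Acaca and Scd1 were lower, Mid1ip1, Thrsp and Scd2 did not pass the threshold, and Acacb, with 0 footprint counts in 6 of 8 libraries and 1 in each of the others, failed the filter. Among 11654 genes tested, 28% were called higher and 28.3% lower, again close to the 2 and 2 of the 7 genes tested. Acly footprints exceeded total mRNA by 1.09 ± 0.11 (adjusted p 7.89e-08), with a lowest, median and highest footprint level of 553.7, 739.3 and 873 CPM against 282.1, 372.5 and 438.1 CPM. Every Acly footprint library lay above every total mRNA library. The Fasn difference was 0.71 ± 0.11 (adjusted p 1.17e-05), with footprints from 746 to 1302 CPM and total mRNA from 505.3 to 867.2 CPM.

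Scd1 was lower by −0.46 ± 0.18 (adjusted p 0.0351) and Acaca by −0.31 ± 0.11 (adjusted p 0.0241). Both calls were lost without the A315T cultures, at −0.51 (adjusted p 0.0632) and −0.37 (adjusted p 0.0718), and the Scd1 call also without hTDP-43 replicate 1 (adjusted p 0.0595). The Mid1ip1 difference was 0.02 ± 0.28 with a 95% interval of −0.57 to 0.62. Without the A315T cultures it was −0.59 (adjusted p 0.0537).

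Neurons were set against MN1 cells next, with the 3 groups of each cell type weighing equally. In total mRNA 6 of the 8 genes were lower in neurons, Acaca was higher and Scd2 did not pass the threshold. Background calls among 12801 genes were 42.6% higher and 38.4% lower. Mid1ip1 was lower by −1.41 ± 0.18 (adjusted p 3.54e-06), with 41.96 to 91.31 CPM in neurons and 136.3 to 175.4 CPM in MN1 cells. Thrsp was lower by −2.37 ± 0.38 (adjusted p 4.14e-05), with 1.174 to 6.723 CPM against 8.758 to 22.13 CPM. With GFP and WT cultures alone the Thrsp call was lost (−1.70, adjusted p 0.0507), whereas that of Mid1ip1 was kept (−1.30, adjusted p 0.00979). Neither gene had a neuron culture that reached the lowest MN1 culture. In bulk cultures, fewer cells of a type and less RNA per cell cannot be told apart.

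Among the enzymes, Acacb was the most reduced in neuron total mRNA, by −2.71 ± 0.43 (adjusted p 3.73e-05). It had 0 to 3.239 CPM and at most 12 counts per neuron library against 6.021 to 12.77 CPM in MN1 cells. Acacb failed the filter in fits of neurons alone and entered this one through its MN1 libraries. A lower value in neurons was therefore favoured in advance. The Acacb difference was −4.11 without WT replicate 2, which left 1 WT library, with 0 Acacb counts. Acly was lower by −0.77 ± 0.12 (adjusted p 2.23e-05), Scd1 by −0.78 ± 0.15 (adjusted p 0.000292) and Fasn by −0.49 ± 0.11 (adjusted p 0.00103). The Fasn call was lost without the A315T cultures (−0.33, adjusted p 0.0937). Acaca was higher in neurons by 0.75 ± 0.13 (adjusted p 9.54e-05), at 148 to 259.9 CPM against 99.41 to 131.9 CPM, with no overlap. Scd2, at 968.2 to 1462 CPM in neurons and 1320 to 1666 CPM in MN1 cells, differed by −0.19 ± 0.13 (adjusted p 0.184, 95% interval −0.48 to 0.09), and was called at −0.31 (adjusted p 0.029) without WT replicate 2. The carboxylases thus moved in opposite directions between the cell types, and the astrocyte markers given above, 7 of 8 tested being higher in neurons, moved with the same comparison. Their part in these values was not tested.

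Footprints showed the same directions in the genes called. Acacb failed the filter, and without a filter it was at −3.95, beside −3.06 for Mid1ip1. Of the 7 genes tested, 5 were lower in neurons and Acaca was higher, against 39.9% lower and 42.7% higher among 10698 genes. Mid1ip1 was lower by −3.13 ± 0.30 (adjusted p 2.20e-09), the lowest, median and highest culture being 24.3, 45.0 and 161.7 CPM in neurons and 159.2, 494.4 and 976.2 CPM in MN1 cells. A315T replicate 1 of the neurons and GFP replicate 2 of the MN1 cells were the cultures that overlapped. Thrsp was lower by −2.17 ± 0.34 (adjusted p 4.98e-06), at 0 to 9.348 CPM in neurons and 11.98 to 19.21 CPM in MN1 cells. With GFP and WT cultures alone it was lower by −1.30 (adjusted p 0.037). Thrsp had at most 8 counts per neuron footprint library and failed the filter in fits of neuron footprints alone. It entered this fit through its MN1 libraries, so a lower value in neurons was favoured in advance. Scd1 was lower by −1.23 ± 0.16 (adjusted p 2.54e-07), at 39.58 to 93.54 CPM against 132 to 210.1 CPM.

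Fasn and Acly footprints were lower in neurons by −0.45 ± 0.12 (adjusted p 0.00165) and −0.40 ± 0.11 (adjusted p 0.00258). Both calls rested on MN1 A315T replicate 1, without which they were −0.21 (adjusted p 0.111) and −0.21 (adjusted p 0.112). Without all A315T cultures they were −0.22 (adjusted p 0.146) and −0.12 (adjusted p 0.43). The Acly call was also lost without WT replicate 3 (−0.30, adjusted p 0.0812) and without neuron hTDP-43 replicate 3 (−0.30, adjusted p 0.0537). Acaca at 0.30 ± 0.13 (adjusted p 0.0352) lost its call with RLE normalization (0.26, adjusted p 0.0582) and with DESeq2 (0.26, adjusted p 0.123). It was also lost without MN1 hTDP-43 replicate 2, MN1 A315T replicate 2 or WT replicate 2 (adjusted p 0.113, 0.0569 and 0.110). It was larger without MN1 A315T replicate 1 (0.59, adjusted p 0.000422) and without all A315T cultures (0.59, adjusted p 0.00126). Scd2 differed by −0.05 ± 0.11 (95% interval −0.28 to 0.17).

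**Figure D3:**
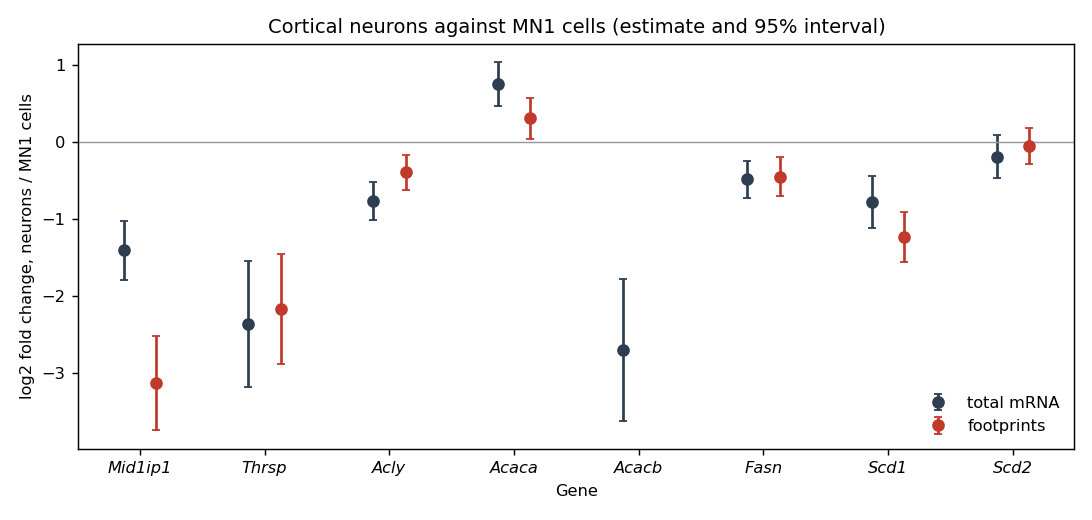
Fitted log2 fold change of cortical neurons against MN1 cells for the 8 genes, total mRNA in dark blue and footprints in red, with 95% intervals from the fit and a line at 0. Mid1ip1 was at −1.41 in total mRNA and −3.13 in footprints, Thrsp and Acacb lay below −2 in total mRNA, and Acaca lay above 0. Acacb has no footprint point.

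Whether footprints relative to total mRNA differed between the cell types was tested in 1 fit over the 28 libraries. Mid1ip1 was lower in neurons by −1.46 ± 0.42 on the log2 scale (adjusted p 0.0213, 95% interval −2.31 to −0.61) and Acly was higher by 0.48 ± 0.15 (adjusted p 0.0376). The other 6 genes did not pass the threshold. Of 12358 genes, 2.9% were called lower and 7.82% higher. The median of all genes moved from 0.18 with TMM normalization to −0.04 with RLE, and the share of higher calls among all calls from 72.96% to 33.99%, so values are best read against these medians. Mid1ip1 kept its direction and call with RLE (−1.68, adjusted p 0.0103) and with DESeq2 (−1.82, adjusted p 0.00118). Without the A315T cultures it was −1.89 (adjusted p 0.0209). The call was lost with GFP and WT cultures alone (−1.86, adjusted p 0.935). With the culture as a block, which pairs the libraries of 1 culture, the Mid1ip1 difference was −1.43 (adjusted p 0.00389).

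The Mid1ip1 call depended on single MN1 cultures, being lost without GFP replicate 1 (−1.30, adjusted p 0.0649), A315T replicate 1 (−1.23, adjusted p 0.0757) or A315T replicate 2 (−1.40, adjusted p 0.0528). The Acly call was lost with RLE (0.26, adjusted p 0.304), with DESeq2 (0.27, adjusted p 0.164), without the A315T cultures (0.26, adjusted p 0.752) and with leaving out any of 9 single cultures. The lowest of the last was 0.22 without MN1 hTDP-43 replicate 1. DESeq2 also called Acaca lower (−0.56, adjusted p 0.0233), which edgeR did not (−0.34 ± 0.18, adjusted p 0.256). Thrsp differed by 0.36 ± 0.49 with a 95% interval of −0.65 to 1.37, and its difference from Mid1ip1 was not tested.

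Levels of different genes were compared per kb of exon. In MN1 total mRNA the order by median CPM per kb was Scd2 (264.6), Acly (114.3), Fasn (90.0), Mid1ip1 (75.6), Scd1 (37.95), Thrsp (12.7), Acaca (7.11) and Acacb (0.919). Acly and Fasn, and Thrsp and Acaca, overlapped in their ranges. In MN1 footprints Mid1ip1 moved to the top with a median of 232.3 CPM per kb, although its range of 74.8 to 458.8 overlapped with those of Scd2 (213.4), Acly (180.1) and Fasn (130.4). Neuron total mRNA had Scd2 (243.1), Acly (70.6), Fasn (64.5), Mid1ip1 (26.5), Scd1 (22.4), Acaca (11.3), Thrsp (2.88) and Acacb (0.148), the ranges of Acly and Fasn and of Mid1ip1 and Scd1 overlapping. Neuron footprints began with Scd2 (201.9), Acly (140.1), Fasn (102.6), Mid1ip1 (21.2) and Scd1 (15.3), and neighbours below Scd2 all overlapped. Acaca (8.91) exceeded Thrsp (2.59) there, whereas MN1 footprints had Thrsp (13.4) above Acaca (7.28) without overlap. Exons here are the union over all transcripts, which for Acaca spans 17074 bases and lowers its value per kb. They include UTRs, whereas the paper reported that footprints preferred coding sequence over 3′ UTRs. The order of genes in footprints therefore also depends on the UTR share of each gene. The 543 Mid1ip1 exon bases shared with Gm14493 stayed in its length, although their reads may not have been counted.

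The 7 partners of Mid1ip1 were tested in the same 12 comparisons of TDP-43 groups. Thrsp and Acacb passed the filter in some of these comparisons only, so that 5 to 7 partners were tested in each and 71 tests were made in all. None passed the threshold with edgeR, 3 had an unadjusted p under 0.05, and the smallest adjusted p was 0.78. DESeq2 also called 0, with 2 at an unadjusted p under 0.05. With the replicate block 0 were called, 7 had an unadjusted p under 0.05 and the smallest adjusted p was 0.0957. Background calls among all genes were rare, at 0.0115%, 0% and 0% of genes in MN1 footprints (A315T against GFP, A315T against hTDP-43, hTDP-43 against GFP) and 0.00965%, 0% and 0.01% in MN1 total mRNA. Where 0 genes were called in MN1 cells, 179 and 115 in footprints and 355 in total mRNA had an unadjusted p under 0.05, and DESeq2 called 1, 1 and 11. In the 6 neuron comparisons they were 0%, with 300, 217 and 419 genes at an unadjusted p under 0.05 in footprints and 196, 119 and 44 in total mRNA. DESeq2 called 1 gene there in total mRNA of A315T against WT and 0 in the other 5.

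Fitted log2 changes of the partners stayed between −0.78 and 0.52 over all 12 comparisons. For hTDP-43 A315T against GFP they were 0.03 to 0.36 in MN1 footprints (median 0.07) and −0.17 to 0.51 in total mRNA (median 0.13), beside medians of all genes of 0.00 and −0.0043. For A315T against WT neurons they were −0.22 to 0.20 in footprints (median −0.05) and −0.78 to 0.05 in total mRNA (median −0.10). The 3 partner values with an unadjusted p under 0.05 were all in neurons and concerned Fasn and Acly.

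For Fasn footprints, WT neurons read 939.7 and 746 CPM, hTDP-43 neurons 1302, 1053 and 1169, and A315T neurons 968.4, 803.2 and 1147. The hTDP-43 cultures lay above both WT cultures, with a fitted change of 0.49 ± 0.17 (edgeR, adjusted p 0.780). For Fasn total mRNA, WT neurons read 633.3 and 590.4 CPM, hTDP-43 neurons 726.2, 715.9 and 867.2, and A315T neurons 603.3, 505.3 and 637.5. The A315T cultures lay below the hTDP-43 cultures, with a change of −0.42 ± 0.17 that also missed the adjusted threshold. For Acly footprints, WT neurons read 775.1 and 588.9 CPM, hTDP-43 neurons 873, 736 and 855.2, and A315T neurons 742.6, 553.7 and 677.1. The hTDP-43 and A315T cultures overlapped, with a change of −0.33 ± 0.15. Of the astrocyte markers, the summed total mRNA level was 347.0 to 439.7 CPM in WT, 344.5 to 640.9 in hTDP-43 and 266.5 to 486.8 in A315T neurons, and its part in these values was not tested.

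**Figure D4:**
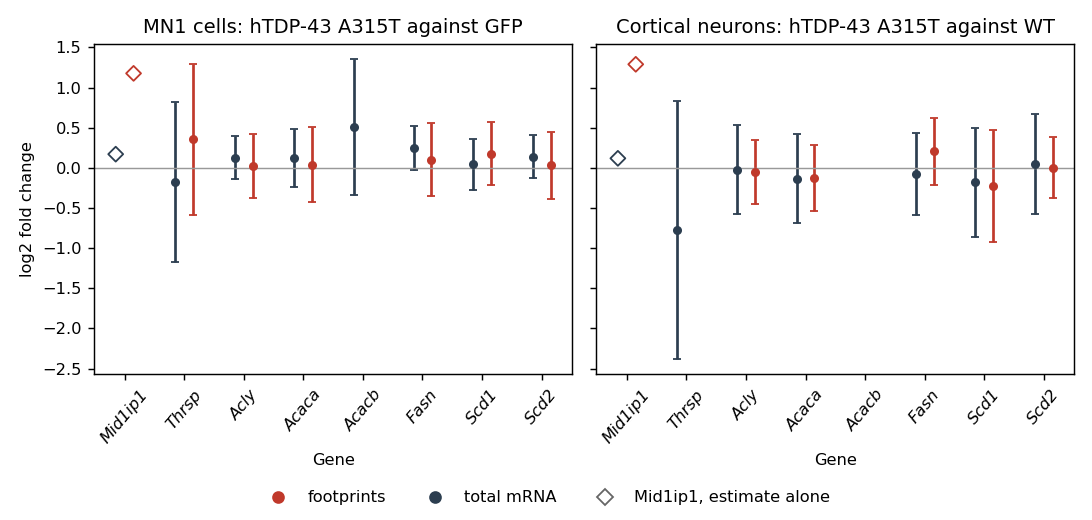
Fitted log2 fold changes of hTDP-43 A315T against its control, GFP in MN1 cells and WT in neurons, total mRNA in dark blue and footprints in red, with 95% intervals for the tested partners. Mid1ip1 is an open diamond with no interval because it was selected on these contrasts. The intervals of all partners drawn take in 0. Mid1ip1 footprints are at 1.18 in MN1 cells and at 1.29 in neurons, the latter being 0.30 without A315T replicate 1. Genes that failed the filter on low counts have no point, namely Acacb in footprints and in neuron total mRNA and Thrsp in neuron footprints.

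Beyond the 8 genes, 93 genes on 7 lists of related pathways were read from the same fits. In the 12 TDP-43 comparisons 66 to 84 of them were tested and 0 were called by edgeR, with 10 in all at an unadjusted p under 0.05 and no more than 3 in any comparison. Between cell types 71 of 89 tested were called in total mRNA, where 10369 of all 12801 genes were, so the share was close to the background. In total mRNA the genes for citrate and NADPH supply were lower in neurons in 6 of 8 and higher in 1 (median −0.82, all genes 0.09), beside 38.4% lower and 42.6% higher over all genes, with G6pdx, the entry enzyme of the pentose phosphate pathway, at −2.78 and Idh1 at 2.15. Malonyl-CoA removal and fatty acid oxidation had 8 lower and 2 higher of 12 (median −1.07). Of the carnitine palmitoyltransferase genes, Cpt1a was at −2.24 and the brain form Cpt1c at 2.15. Mitochondrial fatty acid synthesis had 5 lower and 1 higher of 8 (median −0.51), with Mecr at −1.16.

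The other lists were mixed in neurons against MN1 total mRNA, beside 42.6% higher and 38.4% lower over all genes. Elongation and desaturation had 7 higher and 6 lower of 15 (median 0.39), with Elovl2 at 7.47 and Elovl1 at −2.41. Activation and glycerolipid assembly had 10 higher and 7 lower of 19 (median 0.38), with the fatty acid binding protein Fabp7, a gene of radial glia and astrocytes, at 9.55 and Agpat2 at −7.25. Regulators of lipogenic transcription had 2 higher and 5 lower of 13 (median −0.22). Srebf1, the transcription factor that drives many lipogenic genes, was at −4.13 and Mlxipl, the carbohydrate-responsive factor, at −3.39. Kinases and partners acting on acetyl-CoA carboxylase had 5 higher and 6 lower of 14 (median 0.13), with Prkaa2, a catalytic subunit of AMP-activated kinase, at 8.95 and Prkab1 at −2.69. Footprints gave similar counts, beside 42.7% higher and 39.9% lower over all genes. Counts ran from 2 higher and 5 lower of 8 (citrate and NADPH supply) to 7 higher and 5 lower of 13 (kinases).

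Footprints relative to total mRNA were read for the same lists, beside 30.8% lower and 28.7% higher calls over all genes in MN1 cells and 28.3% and 28% in neurons. In MN1 cells 8 of 13 regulators were lower and 1 was higher (median −0.76, all genes −0.04), with Usf2 at −1.81 and Scap, the SREBP escort, at −0.93. In neurons 7 of 12 were lower and 3 higher (median −0.65, all genes 0.01). Kinases and partners had 6 lower and 3 higher of 13 in MN1 cells and 5 lower and 3 higher of 14 in neurons. Mid1, the ligase partner of Mid1ip1, was among them at −1.62 and −2.12. The citrate and NADPH list was higher in 5 and lower in 1 of 8 in MN1 cells and higher in 6 of 8 in neurons, like Acly, with Idh1 at 0.76 and 1.21. Oxidation genes were higher in 6 of 12 in MN1 cells, and in neurons higher in 6 and lower in 1 of 11. For elongation and desaturation these counts were 6 higher and 2 lower of 13 and 7 higher and 5 lower of 14, with Tecr at 1.23 and 1.24. For activation and glycerolipid assembly they were 4 higher and 7 lower of 16 and 8 higher and 4 lower of 17. Mitochondrial fatty acid synthesis had 3 higher and 1 lower of 8 and 2 higher of 8.

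The footprint-to-total difference between the cell types was called for 15 of the 88 pathway genes tested, 14 of them higher in neurons, beside 7.82% higher and 2.9% lower over all genes. With RLE normalization 5 were higher and 3 lower, so the split depended on scaling. Srebf1 was at 1.07 and Me1 at 0.63, the direction of Acly. Elovl1, an elongase of saturated very long chains, was at −1.86, the direction of Mid1ip1. These values share the dependence on scaling given for the all-gene median.

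Genes with a pattern most like that of Mid1ip1 were named by Pearson's r of log2 CPM over 14 libraries, a description dominated by cell type. In footprints these were Jade2 (0.96), Gm42418 (0.96), Actr5 (0.96), Wdr62 (0.95) and Odc1 (0.95) of 10697 genes. After subtracting the mean of each cell type they were Cmtm7 (0.91), Ttyh3 (0.88), Pth1r (0.86), Jade2 (0.85) and D630039A03Rik (0.84). Pth1r and D630039A03Rik were also on the study's own list with Mid1ip1. That list was drawn from these same libraries, so their likeness is no separate evidence. The paper saw no polysome shift for Pth1r and proposes that it might be a false positive. In the same assay it reported that Mid1ip1 mRNA moved to heavier fractions of MN1 cells expressing hTDP-43 A315T. It also reported more MIG12 protein in MN1 cells with hTDP-43 or hTDP-43 A315T, significant in the nucleus and not in the cytoplasm. In total mRNA the genes most like Mid1ip1 were Aff1 (0.98), Cbfa2t2 (0.98), Polh (0.97), Pcolce (0.97) and 2210016F16Rik (0.97) of 12800 genes. Within cell types they were Aff1 (0.85), Cbfa2t2 (0.84), Fhl3 (0.84), Pkhd1 (0.83) and Pcdhga3 (0.83). The partners ranked lower. Scd1 was the closest partner in footprints at rank 850 (0.88) and within cell types at rank 990 (0.43). Acly was the closest in total mRNA at rank 1233 (0.89), and Scd1 within cell types at rank 805 (0.46).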

How the data were processed

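Ribosome footprints and total mRNA of MN1 cells and cortical neurons were analysed in all 28 libraries, grouped by the sample labels. The authors clipped adapters with cutadapt 1.8.1, removed reads that Bowtie2 placed on non-coding RNA, aligned the rest to GRCm38 with TopHat2 and counted them on exons with featureCounts 1.4.4. The deposited values are raw counts per gene, neither normalized nor pooled. Exon counts include UTRs, and reads that match several gene copies can be lost or misplaced.

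Counts were tested in edgeR 4.0.16 (R 4.3.3) with TMM normalization, filterByExpr (minimum count 10, minimum total 15), the quasi-likelihood test and Benjamini-Hochberg adjustment over all genes tested (threshold 0.05). Each pair of TDP-43 groups was fitted alone. Library types were compared within a cell type with group as covariate, cell types as means of their groups, and the footprint-to-total difference as an interaction. CPM values and their ratios are on TMM scales set separately for footprints and total mRNA (prior count 2 for logarithms, 95% intervals). The floor of 3 counts was converted to CPM by plain library size. Fits that span both library types scaled their libraries together. DESeq2 1.42.0, RLE factors, no filter, a replicate block and leaving out each culture were alternatives. Scripts were tested on simulated data.

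Depth ranged from 166064 to 2528820 reads in neuron footprints, so low genes are imprecise there. The labels give libraries of a cell type with the same replicate number the same date, except for the year of the GFP footprint library of MN1 replicate 1, and the numbers were taken to pair libraries. Deviations from group means correlated at 0.235 to 0.296 between same-numbered libraries in MN1 footprints, 0.265 to 0.374 in MN1 total mRNA, 0.0272 to 0.222 in neuron footprints and −0.165 to 0.511 in neuron total mRNA. Between differently numbered libraries these correlations ran from −0.1965 to 0.0887 in neuron footprints and from −0.5105 to 0.3306 in neuron total mRNA. Both ranges overlapped those of same-numbered libraries. In MN1 cells, with 2 cultures per group, differently numbered values were the same-numbered ones with opposite sign. Whether the cultures were independent beyond date is not stated, so p-values measure the spread between these cultures. Where footprints were set against total mRNA, both libraries of a culture entered the main fits as separate units without a culture term. Those p-values measure the spread between unpaired libraries, and only the block pairs them.

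The 8 genes and all lists were chosen with earlier results of these data known. Named genes are the 8 members, Tardbp, up to 4 called genes with the largest change per pathway list and comparison, and the 5 genes most like Mid1ip1 in each library type, over all libraries and within cell types.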

Additional observations from a re-analysis of the deposited data

Results flagged for a closer look

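The difference in footprints relative to total mRNA between neurons and MN1 cells drew attention for 2 of the 8 genes, since the test of the difference itself passed the threshold. For Mid1ip1 the fitted log2 difference was −1.46. Its median ratio was 3.29 in 6 MN1 cultures and 0.896 in 8 neuron cultures. The ratios were scaled within each library type and the fit over all 28 libraries, so the 2 measures differ in size. MN1 cultures of replicate 1, at 3.35 to 5.57, were all above the neurons, whose highest ratio was 1.77. Of MN1 replicate 2, GFP at 0.999 and hTDP-43 at 1.64 lay within the neuron range, and A315T at 3.23 lay above it. For Acly the fitted difference was 0.4839, and 0.26 when RLE factors scaled the libraries. Its median ratios were 1.61 in MN1 cells and 1.99 in neurons, with ranges that did not overlap. Cycloheximide before lysis, date and cell type cannot be told apart in either. No group held enough libraries for a check of single outlying samples.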

How the results depend on the processing

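In the 12 TDP-43 comparisons the count of partners past the threshold was 0 under each alternative run, the replicate block included. Over all genes the count moved more, with the block giving 0 to 283 calls where the unblocked fits gave 0 or 1, and leaving out WT replicate 2 giving 1573 in neuron total mRNA of A315T against WT. Fitting the pairs without a filter gave 6 to 209 calls over all genes. Of the 5 members called in MN1 footprints against total mRNA, 3 were called with GFP cultures alone. In neurons 4 were called, 2 without the A315T cultures and 0 with WT cultures alone. For neurons against MN1 total mRNA 7 were called, and 3 with GFP and WT cultures alone. The footprint-to-total difference between cell types was called for 2 members, for 1 with RLE normalization, for 1 with no filter on low counts, for 1 without the A315T cultures, for 0 with GFP and WT cultures alone, and for 0 to 2 when each culture was left out. The alternatives on A315T, GFP and WT cultures were chosen after seeing the data and use fewer cultures. Also chosen then was the RLE count of pathway genes in this comparison, 8 against 15 with TMM. The culture block left both members called there, with Acly at 0.48 (adjusted p 0.0104), and neither block changed the call of any member in the comparisons where it could be fitted. No paired analysis was possible because the cell types share no culture for neurons against MN1 within a library type. Values of single genes changed sign in 77 of 712 alternatives for TDP-43 comparisons and in 29 of 635 for the others, none of them a called value. Depth limits Acacb and Thrsp in neurons, where 3 counts stand for up to 18.07 CPM by plain library size.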
